A study of Populus trichocarpa with 378 samples.

Results

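PtrC4H1 (Potri.013G157900), PtrC4H2 (Potri.019G130700) and PtrC3H3 (Potri.006G033300) are the cytochrome P450 hydroxylases examined here in wood-forming tissue of Populus trichocarpa. They were chosen by identifier, as 3 of the 41334 genes in the count table, and each was counted in all 378 libraries, with a lowest count of 254. Every library was made from pooled trees, propagated as clones, of the genotype Nisqually-1, grown for 6 months in a greenhouse, and the RNA came from stem-differentiating xylem. The 378 libraries comprised 360 pools of 136 transgenic lines carrying 44 constructs, with o65 and o66 counted as 1, and 18 wildtype pools, 3 in each of 6 planting batches. Of the 44 constructs, 40 were directed at none of the 3 genes. Their targets were PAL, 4CL, HCT, CCoAOMT, CCR, CAD, CAld5H and AldOMT genes of lignin biosynthesis, or MYB, LIM and KNOX1 genes. The label of o65 and o66 also gave overexpression of CAD2.

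The P450 hydroxylases are membrane-anchored enzymes near the entry of monolignol biosynthesis, the route from phenylalanine to the building blocks of lignin. PtrC4H1 and PtrC4H2 are closely related cinnamate hydroxylases that make p-coumaric acid. PtrC3H3 is a coumarate hydroxylase, which adds a further hydroxyl group to the ring and opens the way to guaiacyl and syringyl lignin. In P. trichocarpa xylem the C4H and C3H proteins are known to form heteromeric complexes in the endoplasmic reticulum membrane.

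Of the 44 constructs, 4 were directed at these genes, and all 4 were driven by the xylem-specific promoter of Ptr4CL3, a ligase gene of the same pathway. In batch 3, the RNA interference construct i20 was labelled as a knockdown of C3H3 (8 pools of 3 lines) and the RNA interference construct i69 as a knockdown of C3H3, C4H1 and C4H2 (7 pools of 3 lines). In batch 4, the artificial microRNA a10 was labelled as a knockdown of C4H1 (9 pools of 3 lines) and the artificial microRNA a9 as a knockdown of C4H2 (9 pools of 3 lines). Wildtype trees carried no construct. Among the other constructs named below, the labels directed a12 at 4CL3, a13 at 4CL5, a22 at CCoAOMT1 and a28 at CAld5H2. They directed a41 at LIM2, a43 at MYB167, a46 at MYB156 and i30 at AldOMT2. They directed i35 at CAD1 and CAD2, i42 at LIM1 and LIM2, i45 at MYB090 and MYB167, and i56 at MYB003 and MYB020. The study chose lines by their degree of suppression, so the lines of a construct are not a random sample of transformants. Libraries are written as construct, line and pool, so that i20-10-1 is pool 1 of line 10. Pools of a line are clones of a single transformant. The p-values over all pools of a construct rest on a spread that mixes pools and lines, and they count pools of a line as separate replicates. Those of single lines, and between lines, rest on the spread between pools, not between transformants.

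Totals ranged from 2.12 to 93.5 M counts per library (median 15.7 M). The 10 most abundant genes held a median of 4.6% of the counts, and in 2 libraries, a10-14-2 and a9-5-2, they held 64.9% and 40.2%. Levels are given as CPM, library-size-scaled counts after TMM normalization, and as the percentage of the mean CPM of the 3 wildtype libraries of the same batch. Gene lengths were not used here, so levels were not compared between genes. In bulk tissue, fewer cells of a type and less RNA per cell cannot be told apart. Markers of xylem, bark and phloem could not be identified, because the reference table of 34621 genes held 0 of the identifiers, so the labelled tissue was not checked against them.

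The gene rows were checked against the constructs. The row of PtrC3H3 was the lowest of the 3 rows, relative to wildtype, in all 8 pools of i20, that of PtrC4H1 was the lowest in all 9 pools of a10, and all 3 rows were at 35.5% of wildtype or less in 6 of 7 pools of i69. PtrC4H2 in a9 was the exception and is described below. As i69 was directed at all 3 genes, its pools cannot tell the rows apart, so no construct singled out the row of PtrC4H2.

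PtrC3H3, the target of i20, was lower than wildtype in every i20 library, to a different degree in each line. In line 5 it stood at 12.5, 11.6 and 9.69% of wildtype in pools 1 to 3. In line 10 it stood at 17.7, 17.7 and 17.1%. In line 2 it stood at 50.5 and 47.1% in its 2 pools. The 3 wildtype libraries of the batch lay at 92.9, 99.4 and 108%, above every i20 pool. Over all 8 pools the mean was 23.0% ± 16.3 (SD, n = 8), a log2 fold change of -2.13 ± 0.46 (SE) in edgeR's quasi-likelihood test against wildtype (adjusted p = 0.0192), in a comparison that called 11.8% of all genes tested. The call was lost without wildtype replicate 2 (adjusted p = 0.0838), without line 10 (adjusted p = 0.0852) and with the pools of each line summed (adjusted p = 0.15).

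Each i20 line, taken alone, had PtrC3H3 below wildtype. The log2 fold change was -3.15 ± 0.12 (SE) in line 5 (edgeR adjusted p = 6.9e-07), -2.52 ± 0.11 in line 10 (adjusted p = 8.9e-06) and -1.04 ± 0.12 in line 2 (adjusted p = 0.0059). The shares of all genes called in these lines were 34.4, 10.6 and 1.07%. Between the lines PtrC3H3 differed (adjusted p = 7.4e-05), where 11.9% of genes did.

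Both C4H transcripts, at which i20 is not directed, were also lower than wildtype in lines 5 and 10, the lines with the least PtrC3H3. PtrC4H1 stood at 53.3, 56.2 and 42.2% of wildtype in line 5, at 69.7, 69.9 and 71.0% in line 10, and at 95.1 and 79.1% in line 2. PtrC4H2 stood at 57.1, 67.9 and 53.8% in line 5, at 72.1, 64.1 and 64.6% in line 10, and at 91.6 and 88.0% in line 2. The wildtype libraries lay between 94.8 and 109% for PtrC4H1 and between 88.5 and 119% for PtrC4H2, so that 7 of 8 pools were below all wildtype libraries for each gene. Lower means were not limited to i20 in this batch. PtrC4H1 and PtrC4H2 averaged 67.1 and 69.9% in i20, and 70.7 and 77.1% in i35. They averaged 86.6 and 90.6% in i33 (directed at CAD1), and 88.4 and 102% in i34 (directed at CAD2). In o65 and o66 they averaged 105 and 91.2%.

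In line 5 the log2 fold change was -0.98 ± 0.13 (SE) for PtrC4H1 (edgeR adjusted p = 0.00045) and -0.75 ± 0.13 for PtrC4H2 (adjusted p = 0.0023). In line 10 it was -0.51 ± 0.13 (adjusted p = 0.0318) and -0.58 ± 0.13 (adjusted p = 0.0249), and in line 2 neither passed the test. The calls of line 10 were lost without wildtype replicate 2 (adjusted p = 0.0678 for PtrC4H1 and 0.052 for PtrC4H2), and that of PtrC4H1 also without replicate 3 (adjusted p = 0.0591). The difference between lines passed for PtrC4H1 (adjusted p = 0.0131) and not for PtrC4H2 (adjusted p = 0.0581). Over all 8 pools against wildtype, neither passed edgeR's test (log2 fold change -0.58 ± 0.20, adjusted p = 0.0714, and -0.52 ± 0.17, adjusted p = 0.0607), whereas both passed DESeq2's (adjusted p = 0.0273 and 0.0184). Both also passed without line 2 (edgeR adjusted p = 0.0198 and 0.012), and when the other transgenic libraries of the batch took the place of wildtype (edgeR adjusted p = 0.0372 and 0.0146). Neither passed in a joint fit of the batch (edgeR adjusted p = 0.224 and 0.146) or with pools summed by line (adjusted p = 0.252 and 0.251). Nor did they without line 10 (adjusted p = 0.152 and 0.177) or without line 5 (adjusted p = 0.0898 and 0.141). The settings in which both C4H genes passed also called many other genes. DESeq2 called 5727 genes in i20, and edgeR called 5092 without line 2. Over all pools, edgeR called 3374 of 28583 genes (11.8%).

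The construct i69, directed at all 3 genes, lowered them to different levels. In line 4, PtrC4H1 stood at 9.07, 8.58 and 9.47% of wildtype, PtrC3H3 at 14.3, 13.8 and 14.1%, and PtrC4H2 at 27.03, 25.7 and 27.5%. In line 13, PtrC4H1 stood at 14.3, 11.5 and 12.5%, PtrC3H3 at 19.6, 16.7 and 17.5%, and PtrC4H2 at 35.5, 30.1 and 33.2%. The 6 pools kept this order without exception, and each value was below all wildtype libraries. The single pool of line 10 stood far from the rest, with PtrC4H1 at 62.1%, PtrC3H3 at 67.9% and PtrC4H2 at 112%.

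Against wildtype, the log2 fold changes in line 4 were -3.48 ± 0.10 (SE) for PtrC4H1, -2.84 ± 0.09 for PtrC3H3 and -1.91 ± 0.12 for PtrC4H2 (edgeR adjusted p = 1.4e-06, 1.4e-06 and 5.1e-05). In line 13 they were -2.98 ± 0.10, -2.49 ± 0.09 and -1.61 ± 0.12 (adjusted p = 4.0e-06, 4.0e-06 and 0.00022). For line 10, with 1 pool assumed to vary like the others, the values were -0.69 ± 0.14, -0.56 ± 0.12 and 0.17 ± 0.16, and none passed (adjusted p = 0.0515, 0.0585 and 0.632), although PtrC4H1 and PtrC3H3 passed without wildtype replicate 1 or 3 (adjusted p from 0.0276 to 0.049). The shares of all genes called were 18.6% in line 4, 13.0% in line 13 and 1.32% in line 10. All 3 genes differed between the lines (adjusted p = 4.4e-05, 6.1e-05 and 0.00062 for PtrC4H1, PtrC3H3 and PtrC4H2), where 13.7% of genes did.

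Over all 7 pools of i69, PtrC4H1 and PtrC3H3 passed the test against wildtype and PtrC4H2 did not. The log2 fold changes were -2.46 ± 0.57 (SE, adjusted p = 0.0388), -2.10 ± 0.46 (adjusted p = 0.0329) and -1.27 ± 0.43 (adjusted p = 0.111), in a comparison that called 4.23% of genes. The first 2 calls were lost without any single wildtype replicate (adjusted p from 0.051 to 0.136), without line 4 or line 13 (adjusted p from 0.144 to 0.193), and with pools summed by line (adjusted p = 0.483 and 0.471). Without line 10 all 3 genes passed (log2 fold change -3.21, -2.66 and -1.76, adjusted p = 3.0e-05, 2.5e-05 and 0.00018).

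**Figure D1:**
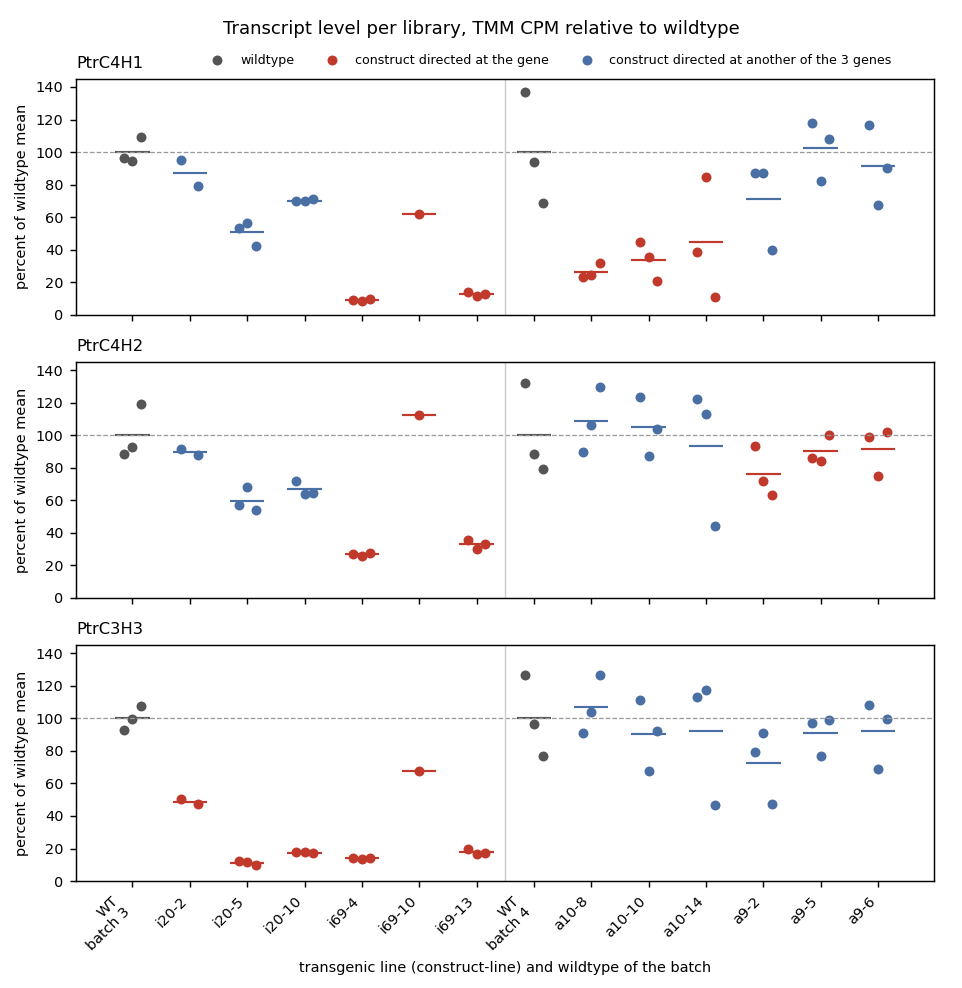
Levels of the 3 P450 transcripts in each library of i20, i69, a10 and a9 and of the wildtype of their batches, in percent of the wildtype mean (y axis, from 0), by line (x axis). Points are pools, horizontal bars are means, red marks constructs directed at the gene, blue those directed at another of the 3 genes and gray wildtype. PtrC3H3 lies between 9.69 and 50.5% in i20, whereas PtrC4H2 in a9 lies between 63.3 and 102% and overlaps wildtype at 79.4 to 132%.

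In a10, directed at PtrC4H1, most pools had PtrC4H1 below all wildtype libraries while the close relative PtrC4H2 averaged near wildtype, and the wildtype libraries of batch 4 were far apart. PtrC4H1 stood at 23.0, 24.2 and 31.6% of wildtype in line 8, at 44.97, 35.5 and 20.7% in line 10, and at 38.4, 84.7 and 11.2% in line 14. The wildtype libraries lay at 137, 94.2 and 68.98%, and 8 of the 9 pools were below all of them. The ninth was a10-14-2, the library in which 10 genes held 64.9% of the counts. Over the 9 pools PtrC4H1 averaged 34.9% ± 21.3 (SD, n = 9), with a log2 fold change of -1.52 ± 0.44 (SE) that did not pass edgeR's test (unadjusted p = 0.0041, adjusted p = 0.455) or DESeq2's (adjusted p = 0.0811), in a comparison that called 3 genes, 0.00992% of those tested. Without a10-14-2 the log2 fold change was -1.82 (adjusted p = 0.107).

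The other genes overlapped with wildtype in a10. PtrC4H2 averaged 102% ± 26.1 (SD, n = 9) and PtrC3H3 96.5% ± 25.6, with log2 fold changes of 0.03 ± 0.30 (SE) and -0.05 ± 0.28, whose sign depended on single libraries. How reads that match both PtrC4H1 and PtrC4H2 were counted is not given in the sources used here, so values of that pair are uncertain to this extent. Line by line, none of the 3 genes passed, and the fits called 1, 1 and 0 genes in lines 10, 14 and 8 (0.00331, 0.00331 and 0% of genes, edgeR), against 2091, 3086 and 957 at an unadjusted p under 0.05; DESeq2 was not run by line. The test between lines called 0 genes, with 1660 at an unadjusted p under 0.05.

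In a9, labelled as a knockdown of C4H2, PtrC4H2 overlapped with wildtype. It stood at 93.3, 71.8 and 63.3% in line 2, at 86.1, 84.4 and 99.99% in line 5, and at 98.7, 74.6 and 102% in line 6, with wildtype at 132, 88.7 and 79.4%. Of the 9 pools, 3 were below all wildtype libraries. The log2 fold change was -0.21 ± 0.21 (SE, adjusted p = 0.878), beside -0.17 ± 0.29 for PtrC4H1 and -0.22 ± 0.23 for PtrC3H3 in the same libraries. None of the lines had a call for any of the 3 genes. Against wildtype a9 had 0 genes past the threshold in edgeR, 2143 at an unadjusted p under 0.05, and 26 in DESeq2. The fits of lines 2, 5 and 6 had 0 (4727, 1769 and 767 at an unadjusted p under 0.05), and that between lines had 1 (0.00342% of genes). The study, which chose lines by qRT-PCR, reports significant suppression of the targeted genes by every construct. In the counts examined here, a9 had no such call for PtrC4H2.

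In direct contrasts between constructs, which do not depend on the wildtype mean, PtrC4H1 passed the test in both, and PtrC4H2 and PtrC3H3 passed in neither. PtrC4H1 was 2.54-fold higher in a9 than in a10 (log2 fold change 1.34 ± 0.30 SE, edgeR adjusted p = 0.0182), in a contrast that called 2.60% of genes, and lost its call with pools summed by line (adjusted p = 0.158) and without line 8 or 10 of a10 or line 5 or 6 of a9 (adjusted p from 0.0604 to 0.12). PtrC4H2 was at 0.847 times the a10 level in a9 (log2 fold change -0.24 ± 0.17, adjusted p = 0.51). PtrC4H1 was at 0.271 times the i20 level in i69 (log2 fold change -1.88 ± 0.39, adjusted p = 0.002), in a contrast that called 26.7% of genes, and lost its call with pools summed by line (adjusted p = 0.375) and without line 13 of i69 (adjusted p = 0.0525). PtrC4H2 was at 0.595 times (log2 fold change -0.75 ± 0.28, adjusted p = 0.0573). It passed in DESeq2 (adjusted p = 0.0263), in a joint fit of the batch (adjusted p = 0.0036) and without line 10 of i69 (adjusted p = 1.5e-05), and did not pass without line 4 or 13 of i69 (adjusted p = 0.359 and 0.36) and with pools summed by line (log2 fold change -0.32, adjusted p = 0.799). PtrC3H3, a target of both, did not pass (log2 fold change 0.03 ± 0.42, adjusted p = 0.972).

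Ratios of counts within a library do not depend on its total or on TMM scaling. They were added after the levels had been seen, and 12 were tested, for 3 pairs of genes in the 4 constructs. In a10 the log2 ratio of PtrC4H1 to PtrC4H2, with the wildtype mean at 0, lay from -2.30 to -0.40 in the 9 pools and from -0.18 to 0.11 in wildtype, without overlap. The ratio was on average 0.313 times that of wildtype (exact permutation test over pools, two-sided p = 0.0045, the smallest that 220 arrangements can give, adjusted p = 0.0143). In a10-14-2 it was -0.40, the least extreme of the 9. In a9 the same ratio lay from -0.65 to 0.48 around a mean of 0.02 (exact permutation p = 0.936, adjusted p = 0.936), higher than all wildtype libraries in 4 pools and lower in 1. PtrC4H2 over PtrC3H3 averaged 0.04 in a9 (exact permutation p = 0.795), so no lowering of the target of a9 relative to either of the other genes was detected. The SD over the a9 pools was 0.33 and 0.23 for these ratios, so a small shift could have been missed.

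In i69 each ratio was shifted in the same direction in all 7 pools, including the pool of line 10. PtrC4H2 over PtrC3H3 lay from 0.74 to 0.97 on the log2 scale, with 0.74 in line 10, above the highest wildtype value of 0.15. PtrC4H1 over PtrC4H2 lay from -1.59 to -0.86, with -0.86 in line 10, below the lowest wildtype value of -0.14. PtrC4H1 over PtrC3H3 lay from -0.68 to -0.13, below the lowest wildtype value of -0.07. Each of the 3 ratios had an exact permutation p = 0.0083, the smallest that 120 arrangements can give (adjusted p = 0.0143). In i20 the ratio of PtrC4H1 to PtrC4H2 stayed within -0.36 to 0.13 (exact permutation p = 0.485), while PtrC4H1 and PtrC4H2 were higher relative to PtrC3H3, by 1.77 and 1.86 on the log2 scale (exact permutation p = 0.0061 each, the smallest that 165 arrangements can give, adjusted p = 0.0143). Over line means, 3 lines against 3 wildtype libraries, no exact p can go below 0.1, and each of the shifts called here had that value.

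**Figure D2:**
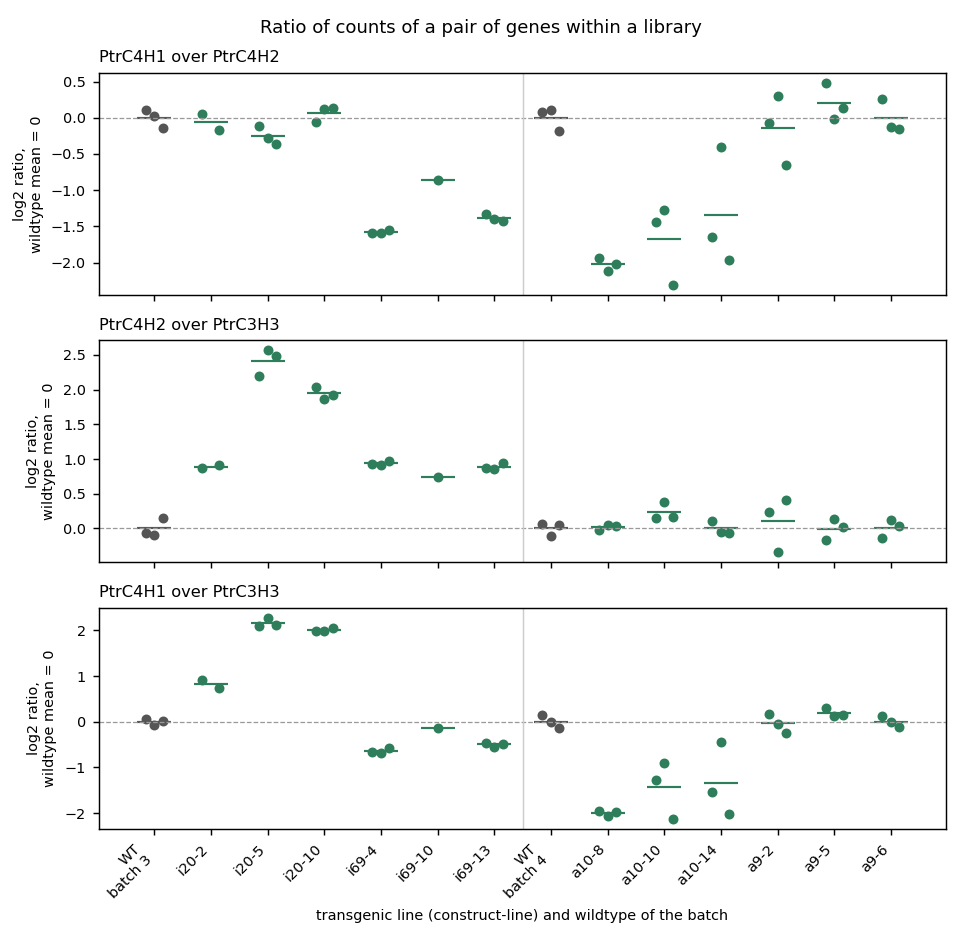
Log2 ratio of the counts of a pair of P450 genes within a library (y axis), set to 0 at the wildtype mean of the batch, by line (x axis). Green points are pools, gray points wildtype libraries and horizontal bars means. The ratio of PtrC4H1 to PtrC4H2 lies below all wildtype libraries in the 9 pools of a10 and the 7 pools of i69, and around 0.02 in a9.

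The wildtype levels to which all constructs were compared varied within and between batches. PtrC4H1 averaged 919 ± 315 CPM (SD, n = 3) in batch 4 and 2759 ± 437 CPM in batch 2, a span of 3.00-fold between batch means (edgeR F-test over 18 libraries, adjusted p = 0.0061). PtrC3H3 spanned 1.80-fold, from 919 ± 230 to 1659 ± 173 CPM in the same batches (adjusted p = 0.0255). PtrC4H2 spanned 1.502-fold, from 1133 ± 107 CPM in batch 6 to 1701.5 ± 283 CPM in batch 3, and did not pass (adjusted p = 0.241). The test called 54.5% of all genes. The call of PtrC4H1 was lost without replicate 2 or 3 of each batch (adjusted p = 0.0522 and 0.144), and that of PtrC3H3 without any 1 replicate (adjusted p from 0.0718 to 0.314). Depth also differed between planting batches, from 5.58 to 5.89 M counts in the wildtype of batch 1 to 14.7 to 93.5 M in that of batch 4, and its part in the result was not tested.

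Within a batch, the wildtype libraries were close in batches 1, 2, 3 and 6 and far apart in batches 4 and 5, for all 3 genes alike. In batch 5 one library stood at 977 CPM for PtrC4H1 beside 2088 and 2329.5 CPM, at 705 CPM for PtrC4H2 beside 1539.5 and 1664 CPM, and at 862 CPM for PtrC3H3 beside 1639 and 1681 CPM. In batch 4 the highest wildtype library had 1.98 times the PtrC4H1, 1.66 times the PtrC4H2 and 1.64 times the PtrC3H3 of the lowest. The SD was 25.02 to 40.1% of the mean in these batches and 3.99 to 16.6% in the others.

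Where a P450 gene was not the target, the number of calls depended on the test and the reference. For each gene, 42 constructs were not directed at it. PtrC4H1 was called in 0 of 42 constructs by edgeR, PtrC4H2 in 0 of 42, and PtrC3H3 in 2 of 42, both lower. Over all genes and all 44 constructs, 2.16% of the tests were called lower and 2.50% higher. At an unadjusted p under 0.05, PtrC4H1 was lower in 5 constructs and higher in 1, PtrC4H2 lower in 8, and PtrC3H3 lower in 6 and higher in 1, where 8.41% of all tests were lower and 8.96% higher. DESeq2 called PtrC4H1 lower in 3 (i15, i20 and i45), PtrC4H2 lower in 6, and PtrC3H3 lower in 5 and higher in 1, where it called 3.46% of all tests lower and 3.91% higher. A joint fit of each batch called PtrC4H1 lower in 1 construct (i15), PtrC4H2 in 2 (a43 and i15) and PtrC3H3 in 2 (a43 and i15), with 2.14% of all tests lower and 2.34% higher. Against the other transgenic libraries of the batch, PtrC4H1 was lower in 4 constructs and higher in 2, PtrC4H2 lower in 3 and higher in 1, and PtrC3H3 lower in 3 (a43, i35 and i15), with 5.64% of all tests lower and 5.52% higher. The last 2 fits called PtrC3H3 in other constructs than edgeR's comparison with wildtype did. The construct with the most genes called was i15, with 56.2% of genes.

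The 2 calls of PtrC3H3 were in batch 2, in knockdowns labelled LIM1 and MYB221. In a40, directed at LIM1, PtrC3H3 lay from 70.4 to 78.7% of wildtype in 9 pools (median 74.1%), below wildtype at 88.2 to 108% (log2 fold change -0.40 ± 0.09 SE, edgeR adjusted p = 0.0283, with 2.29% of genes called). PtrC4H2 lay from 72.4 to 86.6% there and missed the threshold (adjusted p = 0.0521), and PtrC4H1 lay from 76.6 to 93.6%. In a47, directed at MYB221, PtrC3H3 lay from 59.9 to 83.1% (log2 fold change -0.39 ± 0.10, adjusted p = 0.0256, with 9.50% of genes called), whereas PtrC4H1 and PtrC4H2 averaged 98.8 and 101.4% of wildtype. Both calls were lost without wildtype replicate 2 or 3, with pools summed by line, in a joint fit of the batch, and against the other transgenic libraries of the batch (log2 fold change -0.11 and -0.10, adjusted p = 0.624 and 0.52).

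Most constructs had levels of the 3 genes below the wildtype of their batch, though few passed edgeR's test against wildtype. The log2 fold change was below 0 in 32 of 42 constructs for PtrC4H1, 34 for PtrC4H2 and 36 for PtrC3H3, with medians of -0.19, -0.24 and -0.21. Over all genes the median was 0.01 and 48.8% of tests were below 0. Constructs of a batch share its 3 wildtype libraries, so these counts are not independent. The lowest value was that of i15, directed at 4CL3 and 4CL5, for all 3 genes (log2 fold change -2.10, -1.45 and -1.11), and its adjusted p was 0.0681, 0.0838 and 0.174. All 3 genes passed for i15 in the joint fit of the batch (adjusted p = 0.0032, 0.0035 and 0.0168) and against the other transgenic libraries (adjusted p = 0.0003, 0.00025 and 0.00098), and PtrC4H1 and PtrC4H2 passed in DESeq2 (adjusted p = 0.0266 and 0.045). Calls were common in i15. Against wildtype, edgeR called 56.2% of 26808 genes there and DESeq2 called 16420 genes. Shares for i15 in the joint fit and against the other transgenic libraries are not given here.

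**Figure D3:**
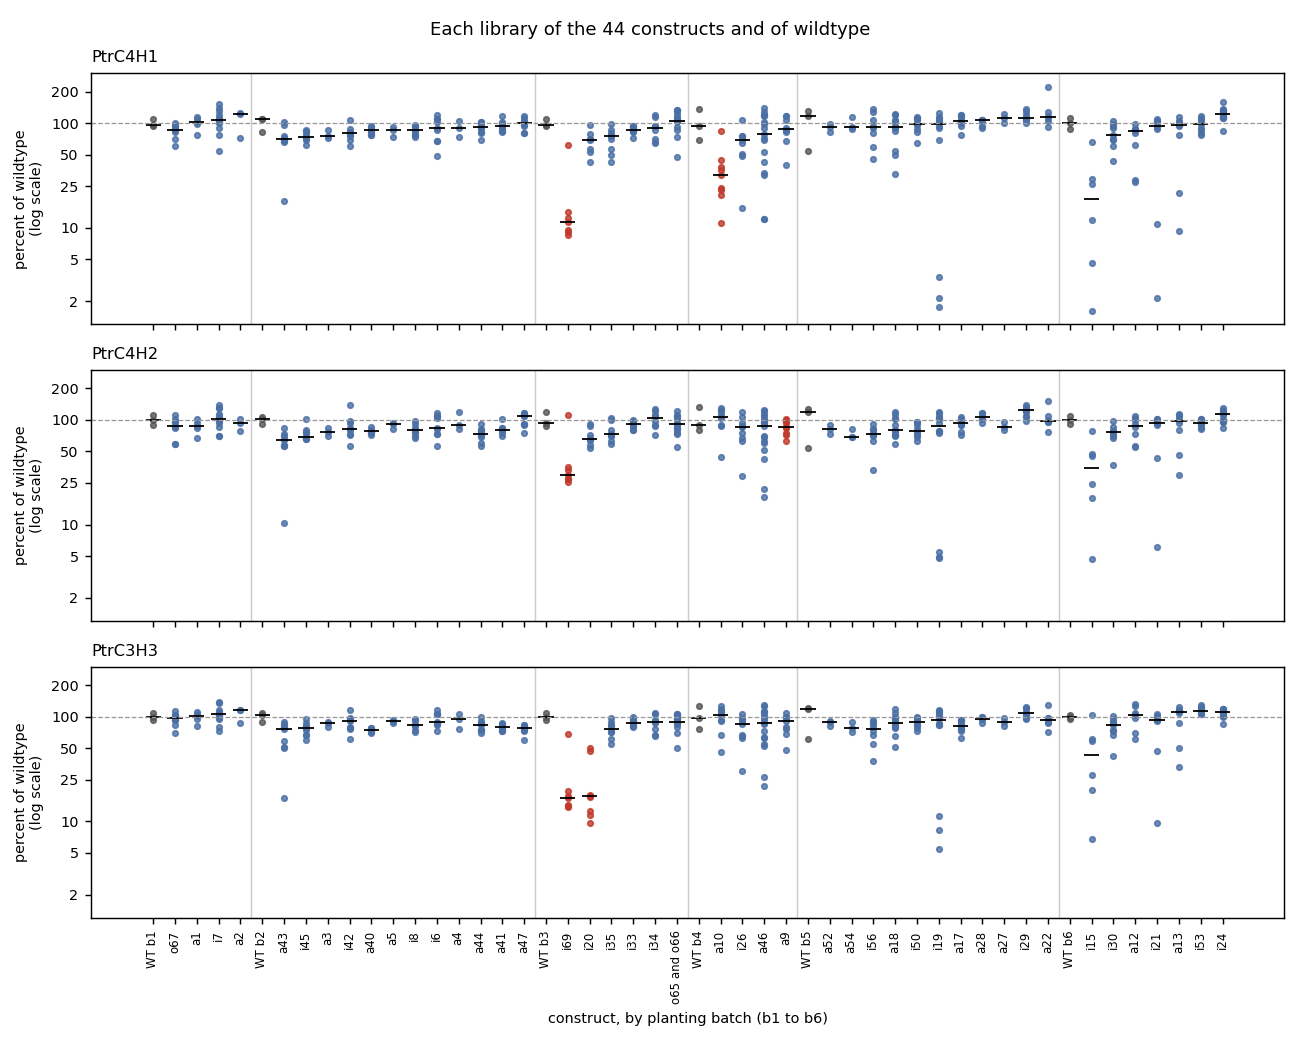
Percent of wildtype of the 3 P450 genes (y axis, log scale) in each library, by construct within planting batch (x axis, b1 to b6, ordered by the median of PtrC4H1). Red points are libraries of constructs directed at the gene, blue points other constructs, gray points wildtype, and black bars medians. Most blue points lie near 100%, with libraries of i15, i19, i21 and a13 under 10% for PtrC4H1.

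In the 327 libraries of the 40 constructs directed at none of the 3 genes, PtrC4H1 had a median of 91.7% of wildtype (quartiles 75.7 and 107%), PtrC4H2 of 85.5% (73.3 and 100.98%) and PtrC3H3 of 87.9% (76.4 and 102%). The widest range was that of PtrC4H1, from 1.60% in i15-3-2 to 223% in a22-10-1, and it was under 50% in 30 libraries, against 19 for PtrC4H2 and 15 for PtrC3H3.

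All 3 genes were under 50% of wildtype in 15 of these libraries, from 11 lines of 9 constructs. In 12 of the 15, PtrC4H1 was the lowest of the 3, PtrC4H2 next and PtrC3H3 the highest. In i19-7 (directed at HCT1 and HCT6), all 3 pools were among them, with PtrC4H1 at 3.39, 1.76 and 2.12%, PtrC4H2 at 5.48, 4.80 and 4.88% and PtrC3H3 at 11.2, 5.45 and 8.30%. The other 3 lines of i19 had PtrC4H1 between 69.2 and 125%. The 3 pools of i15-3 had PtrC4H1 at 4.59, 1.60 and 11.8%, PtrC4H2 at 17.96, 4.67 and 24.6% and PtrC3H3 at 20.0, 6.84 and 27.7%. In i21-8 (directed at CCoAOMT3), 1 pool had PtrC4H1 at 2.12%, PtrC4H2 at 6.12% and PtrC3H3 at 9.57%, and the other pool had 111, 89.2 and 91.7%.

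The 3 libraries that broke the order were a43-13-1, i30-1-3 and i56-8-2, in which PtrC4H2 was the lowest, at 10.3, 37.1 and 33.1%. Pools of a line could differ widely. The library a46-1-3 had PtrC4H1 at 12.2%, and the other pools of that line had it at 69.1 and 78.7%. The 15 libraries held 2.12 to 27.9 M counts, with 3.11 to 20.1% of them in the 10 most abundant genes and 26072 to 34048 genes detected. The libraries with PtrC4H1 under 5% held 8.21 to 13.6 M counts, and 3.35 to 7.09% of them were in 10 genes. The part of tissue, growth or RNA quality in these values was not tested.

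The 3 transcripts varied together across these 327 libraries. Pearson's r of log2 percent of wildtype was 0.96 for PtrC4H2 with PtrC3H3, 0.93 for PtrC4H1 with PtrC4H2 and 0.91 for PtrC4H1 with PtrC3H3 (Spearman's rho 0.84, 0.81 and 0.74). In the 297 libraries with all 3 genes at 50% or more it was 0.80, 0.76 and 0.68. Within single batches r was 0.86 to 0.99 for PtrC4H2 with PtrC3H3, 0.83 to 0.96 for PtrC4H1 with PtrC4H2 and 0.74 to 0.97 for PtrC4H1 with PtrC3H3. Spearman's rho within batches, in the same order of pairs, was 0.64 to 0.96, 0.73 to 0.89 and 0.42 to 0.93. In the 18 wildtype libraries, Pearson's r of log2 CPM was 0.78, 0.61 and 0.91. Libraries of a construct share a transgene, those of a batch share the wildtype mean, and all values share the TMM scaling, so these are descriptions and no test was made.

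**Figure D4:**
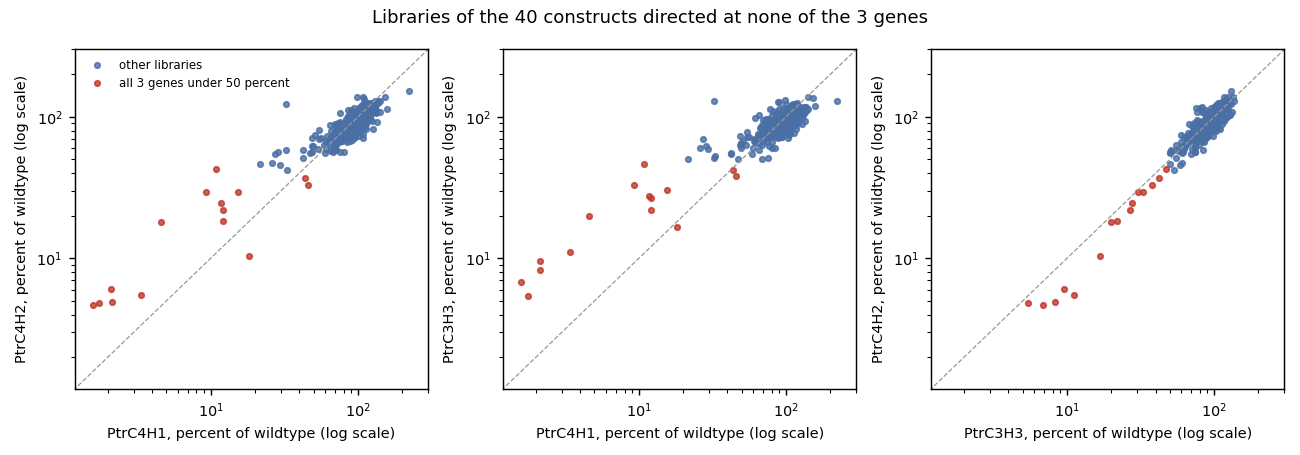
Percent of wildtype of each pair of P450 genes (both axes, log scale) in the 327 libraries of constructs directed at none of them, 1 point per library, with the dashed line at equal values. Red points are the 15 libraries with all 3 genes under 50%. They lie above the line in the plots with PtrC4H1 on the x axis, except for 3 libraries in each.

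Many other transcripts followed the same pattern. Among 14798 genes whose mean over these libraries was 10 CPM or more, 835 had r over 0.8 with PtrC4H1, 599 with PtrC4H2 and 683 with PtrC3H3, and the median r over all genes was 0.13 for each. PtrC3H3 ranked second among the genes most like PtrC4H2, and PtrC4H2 was the third among those most like PtrC3H3 (r = 0.96). Around PtrC4H1, PtrC4H2 ranked 36 and PtrC3H3 ranked 93. The genes most like PtrC4H1 were Potri.019G038200, Potri.T070100 and Potri.002G189000 (r = 0.95 each). Those most like PtrC4H2 were Potri.014G114700 (r = 0.96), PtrC3H3 and Potri.002G189000 (r = 0.95), and those most like PtrC3H3 were Potri.015G069200, Potri.014G114700 (r = 0.96 each) and PtrC4H2. These identifiers carry no name in the sources used here.

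The genes most like PtrC4H1 did not follow it where it was the target. In i69, where PtrC4H1 had a median of 11.5% of wildtype, Potri.019G038200 had a median of 142%, Potri.T070100 of 142% and Potri.002G189000 of 98.9%. In a10, where PtrC4H1 had a median of 31.6%, the same genes had medians of 112, 106 and 107%. In i20, where PtrC3H3 had a median of 17.4%, Potri.015G069200 had a median of 94.0% and Potri.014G114700 of 88.5%. PtrC4H2, the third gene most like PtrC3H3, was lower there, with a median of 66.3% (53.8 to 91.6%).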

How the data were processed

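The 378 RNA-seq libraries came from stem-differentiating xylem. The authors prepared them with TruSeq for the Illumina GAIIx, used Bowtie and TopHat for mapping to v3.0 of the poplar genome, and obtained gene counts by BedTools. Versions and the treatment of reads matching several genes, such as PtrC4H1 and PtrC4H2, are not given in the sources used here, so a misassigned share of reads between that pair cannot be measured. The deposited values are raw counts. Of the columns, 0 were without a label, and 1, of construct a12, was matched by group only.

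Each construct was tested against its batch's 3 wildtype libraries in R 4.3.3 with edgeR 4.0.16 (filterByExpr, TMM, quasi-likelihood test, Benjamini-Hochberg adjustment over all genes, threshold 0.05). DESeq2 1.42.0, an alternative, replaces outlying counts in groups of at least 7. Levels used TMM factors over all libraries (33003 genes). Tests were checked on simulated counts of independent libraries, with the same spread for all genes and no lines. That check does not cover pools clustered by line. Tables and figures used Python 3.11.15. The members, lists and tests were chosen with earlier results of these data known. Named genes were the 3 members and, for each, the 3 genes of highest Pearson r (log2 of percent of wildtype plus 1). A list of 20 pathway genes, paralogs and cell type markers needed a reference match and were not used here, nor were sequences. Alternatives were RLE scaling, no filter, DESeq2, leaving out libraries or lines, summed pools, a block, joint fits and other references.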

Additional observations from a re-analysis of the deposited data

Results flagged for a closer look

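Within groups of 4 to 10 libraries, 93 tests for a value far from the rest were made in 31 constructs, where chance gives about 1 in 20, or 4.65, and 15 values stood apart. That rate assumes libraries of a single kind, but most groups mixed lines chosen by suppression, and the 3 genes varied together. The 15 values are therefore not a count of faulty libraries. The pool i69-10-1 stood apart for all 3 genes, with PtrC4H1 at 62.1% of wildtype (other i69 pools 8.58 to 14.3%), PtrC4H2 at 112% (25.7 to 35.5%) and PtrC3H3 at 67.9% (13.8 to 19.6%), at 14.6 M counts. In a10, PtrC4H1 was at 84.7% in a10-14-2 (others 11.2 to 44.97%), where 10 genes held 64.9% of the counts, and PtrC4H2 was at 44.4% in a10-14-3 (others 87.3 to 130%), where they held 4.84%.

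Of constructs directed at other genes, a43-13-1 had PtrC4H1 at 18.2% (others 65.996 to 104%) and PtrC4H2 at 10.3% (56.3 to 84.4%), in the library of 2.12 M counts, the lowest total of the series. PtrC4H1 was at 223% in a22-10-1 (others 92.9 to 128%). PtrC4H2 was at 138% in i42-5-1 (55.8 to 96.8%), 102% in a41-10-1 (70.4 to 83.97%), 102% in i45-2-2 (65.2 to 79.3%), 86.6% in a40-12-1 (72.4 to 79.5%) and 37.1% in i30-1-3 (67.1 to 97.4%). PtrC3H3 was at 59.9% in a47-5-2 (73.0 to 83.1%) and 86.1% in a28-L-3 (95.4 to 99.0%).

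Lines of a construct differed from each other, in edgeR's test between lines, for PtrC4H1 (adjusted p = 0.0131) and PtrC3H3 (adjusted p = 7.4e-05) in i20, and for PtrC4H1 (adjusted p = 4.4e-05), PtrC4H2 (adjusted p = 0.00062) and PtrC3H3 (adjusted p = 6.1e-05) in i69.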

How the results depend on the processing

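All alternatives kept the direction of each target that was called, and the percent of wildtype of the 3 genes in the 4 target constructs moved by less than 1 SD under every other scaling. Pool numbers did not pair the libraries: over 30 pairs of same-numbered pools, r of their deviations had a median of -0.03, with 8 over 0.1, and 7 libraries correlated best with their own number. With the pool number as a replicate block, genes called numbered 1297 in i20 and 448 in i69, PtrC4H2 in i69 against i20 passed (log2 fold change -0.83, adjusted p = 0.0406) and PtrC3H3 changed sign (-0.039). Summing pools by line could not be fitted for 3 constructs with 1 line, and the lists needing a reference were not run.

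With DESeq2, the log2 fold change in i20 was -0.58 for PtrC4H1 and -0.52 for PtrC4H2, and -0.75 for PtrC4H2 in i69 against i20, all past the threshold. Genes called were 5727 in i20, 3130 in i69, 320 in a10 and 26 in a9, and constructs with a lower non-target gene were 3 for PtrC4H1, 6 for PtrC4H2 and 5 for PtrC3H3, with 1 higher for PtrC3H3 (3.46% of all tests lower and 3.91% higher). With pools summed by line, the values no longer past it were PtrC3H3 in i20 (-1.94) and i69 (-1.58), and PtrC4H1 in i69 (-1.83), in i69 against i20 (-1.32) and in a9 against a10 (1.58). Genes called were then 72 in i20, 0 in i69, 0 in a10 and 3 in a9, and 0 constructs had PtrC3H3 lower. In a joint fit of the batch, PtrC4H2 passed in i69 (-1.27) and in i69 against i20 (-0.76), genes called were 5 in a10 and 1 in a9, and constructs with a lower gene were 1 for PtrC4H1, 2 for PtrC4H2 and 2 for PtrC3H3. Against other transgenic libraries they were 4, 3 and 3, with 2, 1 and 0 higher. Neither fit called PtrC3H3 in a40 or a47. RLE scaling called 9 genes in a10. Without libraries dominated by 10 genes, a choice made after seeing the data, PtrC4H2 in a10 was at -0.0079 and 12 genes were called.

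Leaving out 1 library, line or wildtype replicate gave these log2 fold change ranges. In i20 they were -0.73 to -0.38 for PtrC4H1, -0.66 to -0.38 for PtrC4H2 and -2.80 to -1.73 for PtrC3H3. In i69 they were -3.21 to -2.0, -1.76 to -0.92 and -2.66 to -1.72 for PtrC4H1, PtrC4H2 and PtrC3H3. In a10 they were -0.11 to 0.27 for PtrC4H2 and -0.21 to 0.14 for PtrC3H3, and in a9 -0.37 to 0.12 for PtrC4H1 and -0.34 to 0.040 for PtrC4H2. In i69 against i20 they were -2.62 to -1.41 for PtrC4H1, -1.23 to -0.40 for PtrC4H2 and -0.52 to 0.70 for PtrC3H3, and in a9 against a10 they were 1.17 to 1.57 for PtrC4H1. Genes called ranged from 221 to 5092 in i20, 28 to 3835 in i69 and 0 to 13 in a10. Constructs with a lower non-target gene ranged from 0 to 1 for PtrC4H1 and PtrC4H2 and from 0 to 2 for PtrC3H3. The log2 span of wildtype batch means ranged from 1.31 to 2.01 for PtrC4H1 and from 0.67 to 1.14 for PtrC3H3. Where leaving out samples or summing pools ended a call, fewer libraries entered the fit and the estimates moved as well. Summing pools also changed the unit from pools to lines. Which of these ended a call was not tested.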
